A study of Mus musculus with 6 samples.

Results

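The neurotrophins and the ligands of the GDNF family, with their receptors, were followed in modiolus RNA. The modiolus is the bone at the axis of the cochlea and holds the spiral ganglion neurons (SGNs). The 9 genes named for this set were Bdnf, Ntf3 and Gdnf (ligands), Ntrk2, Ntrk3, Gfra1, Gfra2 and Ret (receptors) and Sort1, which encodes sortilin, a sorting protein that binds pro-neurotrophins. A gene was a member if the deposited table held at least 1 of its Ensembl transcripts, and its counts were the sum over those transcripts. Of the 9 genes, 7 were members among 33676 genes with a listed transcript, and Sort1 and Gdnf were not analysed here. All 7 members passed the filter on low counts, as did 14118 genes in all.

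All libraries came from C57BL/6 mice, which the study's methods describe as male and 8 weeks old. The 3 control libraries were from mice given saline. The 3 degenerated libraries were from mice given 1 g/kg kanamycin, an aminoglycoside antibiotic that kills hair cells, and 30 minutes later 0.4 g/kg furosemide, a loop diuretic, with the tissue taken on day 30. The labels give the cell type as SGN, but whole modiolus was sequenced, and nothing states whether a library is 1 animal or a pool, so that p-values measure only the spread between these libraries.

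BDNF and neurotrophin-3, the products of Bdnf and Ntf3, are made by hair cells and supporting cells of the organ of Corti and keep SGNs alive through the receptor kinases TrkB (Ntrk2) and TrkC (Ntrk3). Both kinases also exist as truncated forms that bind ligand but lack the kinase part. GDNF and neurturin bind the membrane-anchored coreceptors Gfra1 and Gfra2, which present them to the receptor kinase Ret.

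The libraries held between 12480876 and 15549319 counts, and members took 0.0394% to 0.0632% of a library. The table lists 26 of the 62 annotated transcripts of the 9 genes, and 6 of these 26 were at 0 in every library. Of the markers of SGNs, 21 of 22 were listed and none was at 0 in every library, and 14 of the 19 tested were lower in degenerated libraries (median log2 fold change -0.28), although none passed the test. Of 12 hair cell markers tested 10 were lower, and Ocm and Slc26a5 passed the test. The 14 listed Schwann cell and satellite glia markers had a summed level of 5866 to 10175 CPM (counts scaled to a common library size) in control and 5356 to 8211 in degenerated libraries. In the other marker lists, Cdh19 and Gldn (glia) and C1qb (macrophage) passed the test as higher. Bglap (bone) and Pvalb (skeletal muscle list) passed as lower. Of 13 glia markers tested 8 were higher and 5 lower, and of 5 macrophage markers 3 were higher and 2 lower. The 4 bone and 4 skeletal muscle markers tested were all lower. Control replicate 3 stood apart in skeletal muscle: the 8 listed muscle genes other than Pvalb, which muscle shares with neurons, were at 8.17 to 120 CPM there and at 0 to 5.40 CPM in the other libraries. The part of these cells in the results on the members was not tested. Blood and marrow genes summed to 4617, 41974 and 21203 CPM in control replicates 1, 2 and 3 and to 5674, 3958 and 15659 CPM in the degenerated replicates, so that control replicate 1 and degenerated replicates 1 and 2 were low in them and the other libraries high.

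Ntrk3, Ntf3 and Gfra1 were listed with transcripts that differ in their coding sequence or its extent, and these stretches are shown because the results separate the transcripts. Ntrk3-201 (19703 bases, chr7:78175959-78578408, minus strand, GRCm38) encodes the full receptor of 825 codons, and Ntrk3-202 (3977 bases, chr7:78300690-78577982) a form of 612 codons without the kinase part. Their coding sequences share the first 1585 bases and then part. In the next lines capitals mark the first 251 coding bases after that branch, which for Ntrk3-202 are all that it has and lie in the exons at chr7:78304292-78304426 and chr7:78302632-78302747, and for Ntrk3-201 lie at chr7:78260284-78260414 and chr7:78250754-78250873.
Ntrk3-202: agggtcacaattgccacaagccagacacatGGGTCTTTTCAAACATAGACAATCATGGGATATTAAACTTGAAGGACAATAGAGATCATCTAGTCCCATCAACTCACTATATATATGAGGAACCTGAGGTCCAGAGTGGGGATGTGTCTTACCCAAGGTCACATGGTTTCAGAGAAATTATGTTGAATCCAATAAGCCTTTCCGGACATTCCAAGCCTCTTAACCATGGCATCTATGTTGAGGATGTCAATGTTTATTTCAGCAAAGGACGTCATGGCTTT
Ntrk3-201: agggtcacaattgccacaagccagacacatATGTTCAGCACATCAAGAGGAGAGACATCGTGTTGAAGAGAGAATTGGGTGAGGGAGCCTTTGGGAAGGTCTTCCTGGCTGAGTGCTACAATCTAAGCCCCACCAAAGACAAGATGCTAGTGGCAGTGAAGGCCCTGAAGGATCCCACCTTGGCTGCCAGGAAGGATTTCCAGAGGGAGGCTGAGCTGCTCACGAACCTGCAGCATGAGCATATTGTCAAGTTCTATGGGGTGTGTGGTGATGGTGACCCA

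Ntf3-203 (chr6:126101412-126164960, minus strand) starts in another first exon than Ntf3-201 (chr6:126101412-126166910), and it adds 39 coding bases before the 774 that make up all of Ntf3-201. Capitals mark the added bases, of which 18 lie in the first exon (chr6:126164730-126164747) and 21 in the shared exon (chr6:126102503-126102523). The first bases of Ntf3-201 are printed below them in lower case.
Ntf3-203: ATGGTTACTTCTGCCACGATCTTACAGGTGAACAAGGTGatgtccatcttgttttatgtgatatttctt
Ntf3-201: atgtccatcttgttttatgtgatatttctt

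Gfra1-204 (841 bases in 3 exons, chr19:58453352-58455909, minus strand) is a short transcript at the start of the gene. All of its 146 coding bases (chr19:58454309-58454348 and chr19:58453352-58453457, in capitals) are also the first coding bases of Gfra1-201, which encodes the whole coreceptor with 1404. Of its exon bases, 392 are shared with Gfra1-201 and 449 occur in no other listed transcript of the gene. The coding bases run to the last base of the annotated transcript without a stop codon, so that Gfra1-204 may be incomplete as annotated.
Gfra1-204: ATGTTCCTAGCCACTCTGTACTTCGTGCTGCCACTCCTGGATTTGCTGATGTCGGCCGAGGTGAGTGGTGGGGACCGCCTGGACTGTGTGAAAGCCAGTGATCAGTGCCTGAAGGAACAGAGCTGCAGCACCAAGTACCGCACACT

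In the comparison of degenerated with control libraries, Gfra1 was the 1 member of 7 that passed the test, and it rose. The test was edgeR's quasi-likelihood test on all genes, and a call needed an unadjusted p below 0.01 and a log2 fold change beyond 0.2 in either direction. By this rule 2.73% of all genes were called, 2.01% as higher and 0.715% as lower. By edgeR no gene of all 14118 had a Benjamini-Hochberg adjusted p under 0.05, while 1367 had an unadjusted p under 0.05 and DESeq2 gave 383 at an adjusted p under 0.05. The groups lay apart for 1 of the 7 members, as they did for 17.7% of all genes. The other 6 members did not pass, with 2 fold changes above 0 and 4 below. The median log2 fold change was -0.06 over the members and -0.003 over all genes tested. In these bulk libraries fewer cells of a type and less RNA per cell cannot be told apart.

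**Figure D1:**
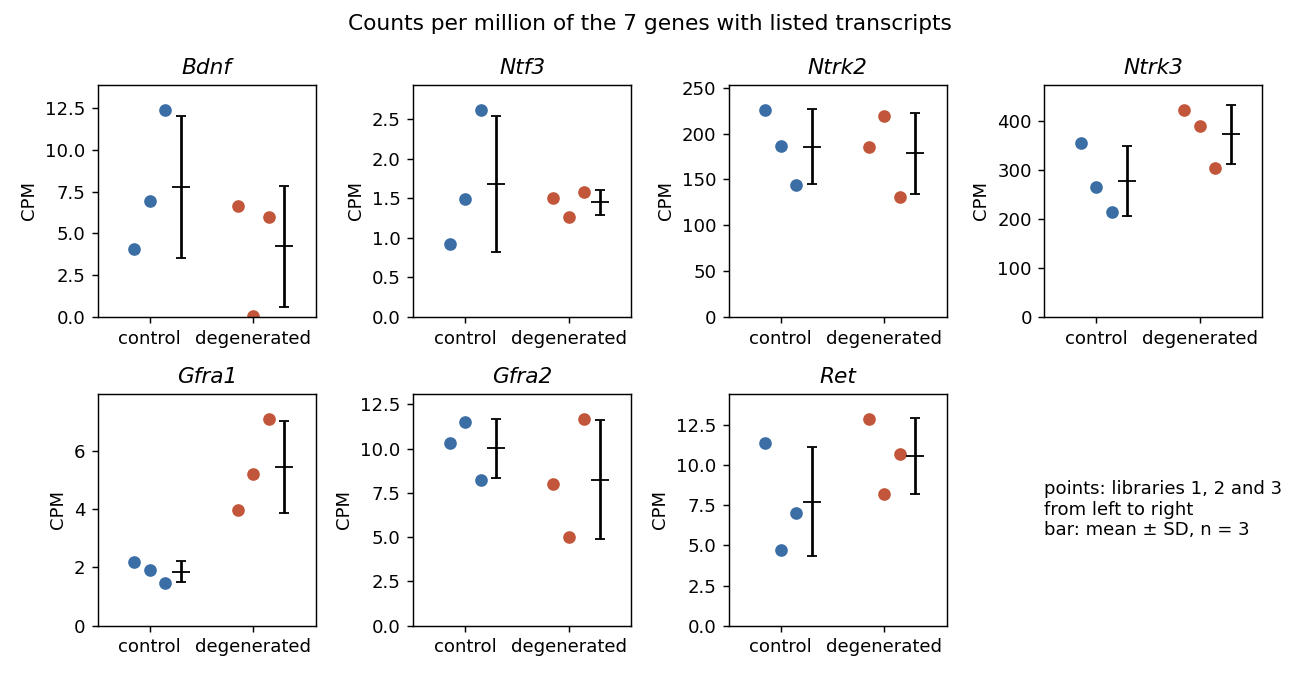
CPM (vertical axes from 0) of the 7 members in the 3 control (blue) and 3 degenerated (red) libraries, with replicates 1, 2 and 3 from left to right and bars for the mean ± SD. The groups lie apart for Gfra1 (1.47 to 2.18 against 3.97 to 7.10 CPM) and overlap for the other 6 genes.

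Bdnf, the ligand of TrkB, varied more between libraries than between groups. Its counts were 61, 98 and 194 in control replicates 1, 2 and 3 and 97, 1 and 76 in the degenerated replicates. The mean level was 7.78 ± 4.23 CPM in the control group and 4.23 ± 3.62 CPM in the degenerated group (SD, n = 3). Control replicate 3, the library with muscle genes, was the highest, degenerated replicate 2 stood far below the rest, and the groups overlapped. Degenerated over control libraries, Bdnf stood at -0.88 on the log2 scale of fold change (SE, the standard error, 1.20, adjusted p = 0.850, edgeR), and the value moved between -1.36 (without degenerated replicate 1) and -0.32 (without degenerated replicate 2), with -0.38 without control replicate 3. It was -2.17 with limma-voom, and -0.35 both by the transcript with the most counts and with the blood and marrow level as a covariate.

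The 3 listed Bdnf transcripts share the exon that encodes the ligand and begin with different first exons, and the one that held most counts changed from library to library. Bdnf-201 had 59, 8 and 92 counts in control and 33, 1 and 75 in degenerated replicates. Bdnf-209 had 0, 90 and 59 counts in control and 50, 0 and 1 in degenerated replicates. Bdnf-210 had 2, 0 and 43 and then 14, 0 and 0 counts. Bdnf-201 thus made up 8.16% to 96.7% of the gene's counts in control and 34.0% and 98.7% in degenerated replicates 1 and 3, while degenerated replicate 2 held 1 count in all. No group was uniform in its main transcript, and neither Bdnf-201 (log2 fold change -0.36, SE 1.38, adjusted p = 0.972, edgeR) nor Bdnf-209 (-1.55, SE 2.08, adjusted p = 0.907) passed. An antisense gene, Gm45346, spans 640 exon bases of Bdnf-201 and 499 of Bdnf-210, and it is not stated whether counting used strand.

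Ntf3, the ligand of TrkC, had few counts, and its total did not pass the test, while 1 of its forms, Ntf3-201, had counts in degenerated libraries only. The gene had 14, 21 and 41 counts in control and 22, 18 and 20 in degenerated replicates, or 1.68 ± 0.861 and 1.45 ± 0.162 CPM (SD, n = 3). The degenerated libraries lay close together and inside the range of the control libraries. The log2 fold change was -0.21 (SE 0.47, adjusted p = 0.910, edgeR), and it was 0.25 without control replicate 3, the library with the most Ntf3 and with muscle genes, 0.13 with the blood and marrow covariate and -1.60 by the transcript with the most counts.

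By transcript, Ntf3-203 had 14, 21 and 41 counts in control and 13, 0 and 10 in degenerated replicates. Ntf3-201 had 0, 0 and 0 counts in control and 9, 18 and 10 in degenerated replicates. Every control count was thus given to the form with the longer coding start printed above, and degenerated replicates 1 and 3 gave 40.9% and 50.0% of the counts and degenerated replicate 2 all of them to Ntf3-201. Counted over the group, Ntf3-201 had 37 against 0 counts, at least 13.0-fold more in degenerated libraries with a 0 read as up to 3 counts. This bound covers counting error only. It leaves out the spread between libraries and the assignment of reads to transcripts, and the transcript was singled out after its counts were seen. Another form, Ntf3-202, was at 0 in all libraries.

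The filter on low counts left Ntf3-201 out of the test. With no filter it had an unadjusted p of 0.00278 (adjusted p = 0.722, edgeR, where 1.14% of 49183 transcripts were called), and in fits that left out a control library it passed the filter and had unadjusted p of 0.00716 to 0.00757. It could enter the test only through the group where it is high. Ntf3-203 was tested and did not pass (log2 fold change -1.61, SE 1.10, adjusted p = 0.800), although its groups did not overlap, as held for 16.4% of the transcripts tested. Apart from the first exons the transcripts share their exons, with 371 exon bases in Ntf3-201 and 231 in Ntf3-203 that the other lacks, so that reads of the shared part were assigned by the authors' counting.

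The forms of Ntf3 have separate annotated starts, and use of these starts was not measured. The bases just before each annotated start are printed here. They are from the RefSeq promoter windows of GRCm38.p6, minus strand, cut at the annotated starts, and lie at chr6:126166911-126166994 (84 bases before Ntf3-201) and chr6:126164961-126165210 (250 bases before Ntf3-203). Capitals mark CACGTG, the E-box, and GGGCGG, the GC box, searched on both strands.
Before Ntf3-201: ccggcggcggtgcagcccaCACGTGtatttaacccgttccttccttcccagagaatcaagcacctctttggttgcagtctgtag
Before Ntf3-203: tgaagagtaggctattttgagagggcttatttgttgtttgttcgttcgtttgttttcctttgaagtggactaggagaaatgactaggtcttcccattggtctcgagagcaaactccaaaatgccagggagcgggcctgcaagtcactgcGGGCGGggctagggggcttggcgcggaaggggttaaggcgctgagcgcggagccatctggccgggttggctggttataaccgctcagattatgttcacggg
In the full windows of 300 bases, CACGTG occurred 1 time in the first and not in the second, and GGGCGG occurred 1 time in the first and 2 times in the second. Of 32851 promoter windows of this length, 7.15% held CACGTG and 35.7% GGGCGG. These matches describe the letters and say nothing of binding.

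**Figure D2:**
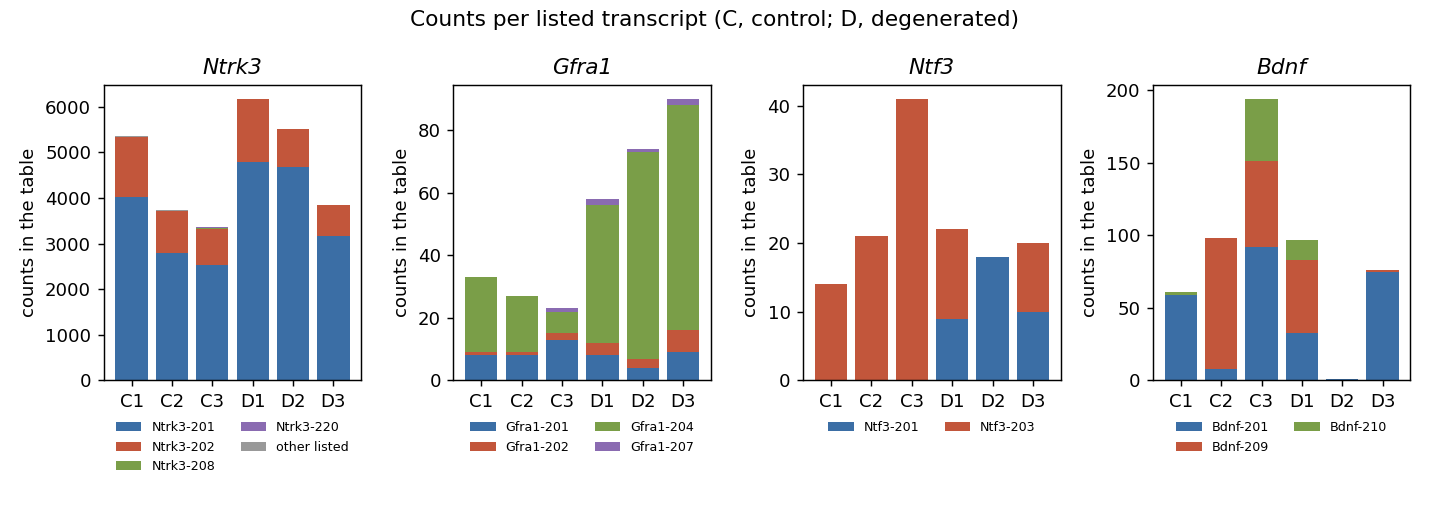
Counts in the table (vertical axes from 0) of each listed transcript with counts, stacked per gene, in control (C1 to C3) and degenerated (D1 to D3) libraries. Ntf3 is Ntf3-203 alone in all control libraries, a mixture with Ntf3-201 in D1 and D3 and Ntf3-201 alone in D2, Gfra1 grows through Gfra1-204, from 7 to 24 counts in control to 44 to 72 in degenerated libraries, and Bdnf has a different main transcript from library to library.

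Ntrk3 and Ntrk2 held 91.9% to 96.9% of the counts of all members. Ntrk3, the TrkC receptor, was at 354, 264 and 214 CPM in control and 422, 389 and 304 CPM in degenerated replicates. Degenerated replicates 1 and 2 were above every control library, and degenerated replicate 3 lay below control replicate 1. The means were 278 ± 70.8 and 372 ± 60.7 CPM (SD, n = 3), and the log2 fold change of 0.42 (SE 0.22, adjusted p = 0.602, edgeR) did not pass the test.

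All 3 libraries low in blood and marrow genes had more Ntrk3 than the other 3. Among the libraries low in blood and marrow genes, the control library had 354 CPM and the degenerated libraries 422 and 389, and among the others the control libraries had 264 and 214 CPM and the degenerated library 304. Each set has an arm of 1 library and carries no test. With the blood and marrow level as a covariate, chosen after the data were seen, the log2 fold change was 0.22, and Ntrk3 did not pass there either. Degenerated replicates 1 and 2 were low in these genes and control replicates 2 and 3 high, so that this level and the group went partly together. The part of blood and marrow in the Ntrk3 values was not tested.

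The full and the truncated form of Ntrk3 had different estimated fold changes, but the test of transcript usage described below called neither form. Ntrk3-201, with the kinase part, had 4031, 2790 and 2527 counts in control and 4790, 4672 and 3164 in degenerated replicates. Ntrk3-202, whose own tail is printed above, had 1296, 927 and 792 counts in control and 1372, 830 and 674 in degenerated replicates. The log2 fold change was 0.49 (SE 0.23, adjusted p = 0.693, edgeR) for Ntrk3-201 and -0.02 (SE 0.31, adjusted p = 0.995) for Ntrk3-202, and neither passed.

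As a share of the gene's counts, Ntrk3-202 made up 24.2%, 24.8% and 23.6% in control and 22.2%, 15% and 17.5% in degenerated replicates. The control shares lay close together and above every degenerated share (24.2% ± 0.624 against 18.2% ± 3.66, SD, n = 3). The 95% Wilson intervals, which cover counting error only, ran from 22.2% to 25% in control replicate 3, the lowest control share, and from 21.2% to 23.3% in degenerated replicate 1, the highest degenerated share, so that these neighbours overlap. The test of transcript usage in edgeR, which weighs each transcript against the others of its gene, gave a log2 change of -0.40 for Ntrk3-202 (adjusted p = 1.0) and called 1.10% of 18255 transcripts. Per kilobase, Ntrk3-202 was above Ntrk3-201 in all control libraries (12.7 to 21.6 against 8.18 to 13.5 RPKM), since Ntrk3-201 is the longer transcript, and in degenerated replicate 2 it was below (14.7 against 16.7 RPKM).

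The remaining 11 listed Ntrk3 transcripts held few counts, with a mean over the 6 libraries of at most 8.17 counts each.

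Ntrk2, the TrkB receptor, was listed with 1 of its 10 annotated transcripts, Ntrk2-201 (8744 bases, chr13:58807697-59133970, plus strand), which encodes the full receptor of 821 codons. The truncated form Ntrk2-202, of 476 codons, is not among the listed transcripts, so that the counts are those given to the full form, and how reads of exons that both forms share were assigned is not stated. Ntrk2 was at 226, 187 and 144 CPM in control and 185, 219 and 131 CPM in degenerated replicates. The groups covered nearly the same range, and replicate 3 was the lowest in both. The log2 fold change was -0.06 (SE 0.25, adjusted p = 0.952, edgeR), with 0.12 without degenerated replicate 3 and 0.09 without control replicate 1. The antisense gene 4930415C11Rik spans 235 of its exon bases.

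Within a library, counts of Ntrk3 stood at 1.56, 1.41 and 1.49 times those of Ntrk2 in control and at 2.28, 1.78 and 2.32 times in degenerated replicates. The lowest degenerated ratio was above the highest control ratio (1.49 ± 0.0762 against 2.13 ± 0.305, SD, n = 3). The exact two-sided permutation test gave p = 0.1, the smallest that 3 against 3 libraries allow, and the ratio was chosen after its values were seen.

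Against the summed level of the SGN marker list, Ntrk3 stood at 24.7, 25.3 and 19.7 CPM per 1000 CPM in control and at 53.1, 39.8 and 45.1 in degenerated replicates, and Ntrk2 at 15.8, 17.9 and 13.2 and then at 23.3, 22.4 and 19.4. Neither receptor had overlapping groups on this scale, while on CPM alone the groups of both overlapped. The exact two-sided permutation test gave p = 0.1 for each, the smallest that 3 against 3 libraries allow, and these ratios were not planned as tests. The SGN markers themselves summed to 14354, 10461 and 10883 CPM in control and 7945, 9775 and 6745 CPM in degenerated replicates, so that the groups of the denominator did not overlap either. Which cells the receptor counts came from was not tested.

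**Figure D3:**
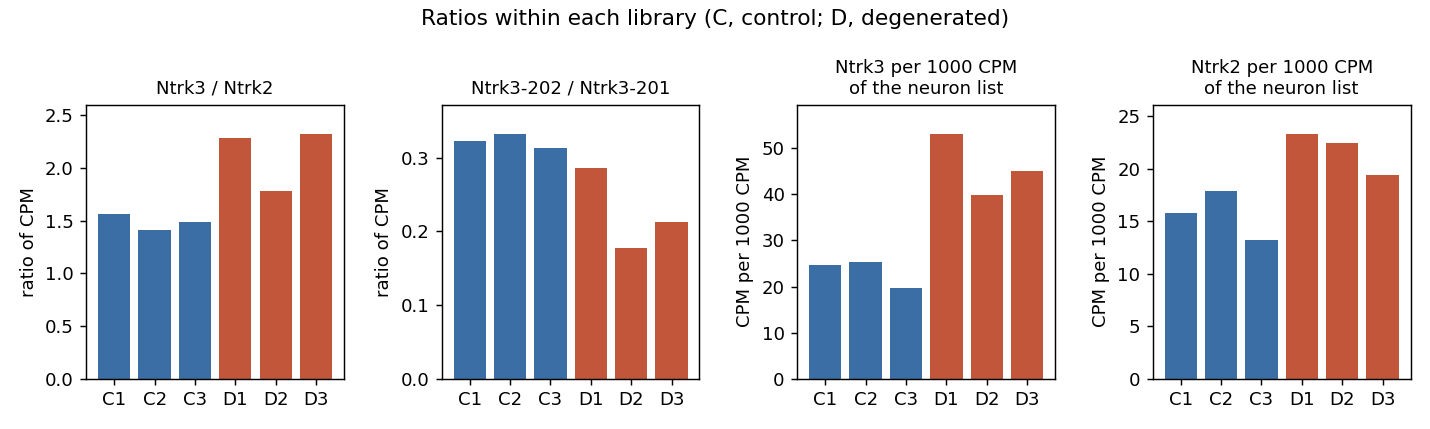
Ratios within each control (C1 to C3, blue) and degenerated (D1 to D3, red) library, with vertical axes from 0: Ntrk3 over Ntrk2, truncated Ntrk3-202 over full-length Ntrk3-201, and Ntrk3 and Ntrk2 per 1000 CPM of the spiral ganglion neuron markers. The groups lie apart in every panel, at 1.41 to 1.56 against 1.78 to 2.32 for Ntrk3 over Ntrk2 and 0.313 to 0.332 against 0.178 to 0.286 for the Ntrk3 forms. The panels share Ntrk3 or the marker sum, whose own groups lie apart, so that they are not independent results. The test of transcript usage called neither Ntrk3 form.

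Gfra1, the coreceptor for GDNF, rose. It was at 2.18, 1.91 and 1.47 CPM in control and 3.97, 5.21 and 7.10 CPM in degenerated replicates. Every degenerated library was above every control library, as held for 10.3% of all genes tested. The means were 1.85 ± 0.362 and 5.43 ± 1.58 CPM (SD, n = 3), a 2.92-fold difference. The log2 fold change was 1.54 with an SE of 0.37 and an unadjusted p of 0.0052 (adjusted p = 0.327, edgeR). With DESeq2, by which 383 genes had an adjusted p under 0.05, Gfra1 had a log2 fold change of 1.53 and an unadjusted p of 0.000537.

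Most of the added counts were those of the short transcript Gfra1-204, printed above. Gfra1-204 had 24, 18 and 7 counts in control and 44, 66 and 72 in degenerated replicates. Its groups did not overlap, as held for 16.4% of the transcripts tested. Gfra1-201, which encodes the whole coreceptor, had 8, 8 and 13 counts in control and 8, 4 and 9 in degenerated replicates. The filter on low counts left Gfra1-201 out of the test. As Gfra1-204 may be incomplete, its counts could belong to longer RNA of the gene, which was not tested. Without Gfra1-204 the gene stood at 0.596, 0.637 and 1.02 CPM in control and 0.958, 0.563 and 1.42 CPM in degenerated replicates. These groups overlapped (exact two-sided permutation p = 0.7). The split was made after the values were seen and leaves few counts, so it cannot show that the rest was unchanged. Gfra1-202 had 1, 1 and 2 counts in control and 4, 3 and 7 in degenerated replicates. Gfra1-207 had 0, 0 and 1 and then 2, 1 and 2 counts.

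On its own in the fit of transcripts, Gfra1-204 had a log2 fold change of 1.96 (SE 0.58, adjusted p = 0.594, edgeR) and did not pass, and by edgeR none of the 9 member transcripts tested was called, against 1.79% of all transcripts (4 had an adjusted p under 0.05). With DESeq2, Gfra1-204 passed with an unadjusted p of 0.00175 (adjusted p = 0.0707). No other gene spans an exon base of Gfra1-204, while the antisense gene Gm16277 spans 444 exon bases of Gfra1-201.

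The call for Gfra1 was lost in 5 of the 6 fits that left out a library. Leaving out control replicate 1, 2 or 3, or degenerated replicate 2 or 3, took it over the threshold of 0.01, with unadjusted p of 0.0117, 0.0182, 0.0214, 0.0154 and 0.0186 (edgeR), while it passed without degenerated replicate 1, with an unadjusted p of 0.00648. It also missed the threshold by the transcript with the most counts (unadjusted p of 0.0145) and with the blood and marrow covariate (0.0124). With the replicate number as a block, its unadjusted p was 0.0254 (edgeR). The log2 fold change lay between 1.30 and 1.72 in the fits that left out a library.

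**Figure D4:**
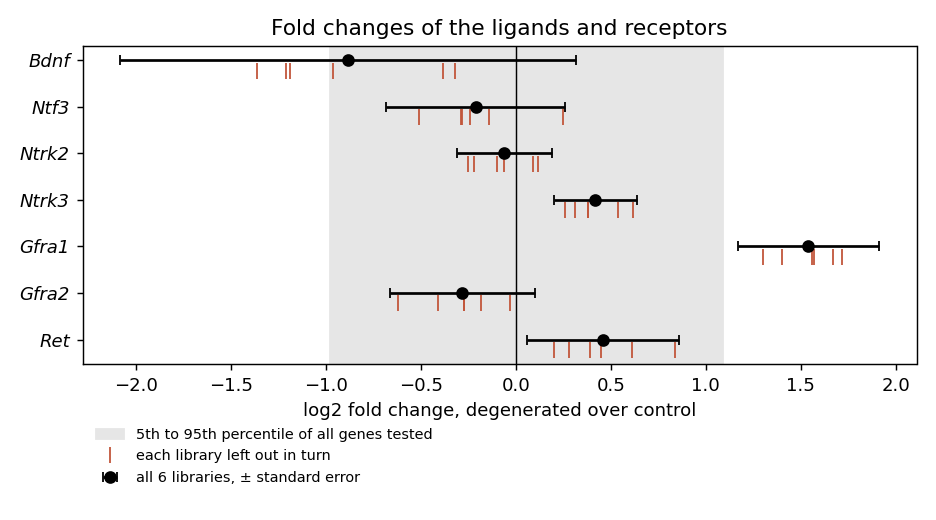
Log2 fold change of each member in degenerated over control libraries (points, ± standard error from edgeR), with red ticks for the fits that leave out 1 library each and a grey band from the 5th to the 95th percentile of all genes tested (-0.98 to 1.09). Gfra1 lies above the band in all fits, and the ticks of Ntf3 and Ntrk2 fall on both sides of 0.

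Gfra2, the coreceptor for neurturin, was listed with 1 transcript, Gfra2-201 (3472 bases, chr14:70890120-70979838, plus strand). It was at 10.3, 11.5 and 8.23 CPM in control and 8.0, 5.0 and 11.7 CPM in degenerated replicates. The degenerated libraries held both the lowest and the highest value. Its log2 fold change was -0.28 (SE 0.38, adjusted p = 0.845, edgeR).

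Ret, the kinase that both coreceptors use, was listed with Ret-201 (5456 bases in 20 exons, chr6:118151745-118197133, minus strand), the longer form of 1115 codons, and not with Ret-202 of 1073 codons. It was at 11.4, 4.74 and 7.02 CPM in control and 12.9, 8.17 and 10.7 CPM in degenerated replicates. Control replicate 1 lay among the degenerated libraries and the other controls below them. Ret had a log2 fold change of 0.46 (SE 0.40, adjusted p = 0.766, edgeR).

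Compared per length, as CPM per kilobase of transcript (RPKM), Ntrk3 had the highest level, with 22.7 to 41.5 RPKM, and Ntrk2 followed with 15 to 25.9 RPKM. This order held in all 6 libraries, but the value of Ntrk3 adds its truncated form. Ntrk3-201, its full form, had 8.18 to 16.7 RPKM and was below Ntrk2 in every library. The truncated Ntrk2-202 is not listed, so the genes are not compared over like forms. The other 5 members overlapped and changed places from library to library, with 1.11 to 8.57 RPKM for Gfra1, 1.44 to 3.36 for Gfra2, 0.869 to 2.37 for Ret, 0.0165 to 2.99 for Bdnf and 0.69 to 1.95 for Ntf3. The value of Gfra1 per length is raised by its short transcript, Gfra1-204.

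Of 137 other genes of the neurotrophin and GDNF pathways, 118 were listed and 102 tested, and 2 of these (Vgf and Etv5) rose while none fell, a share near that of all genes, of which 2.01% were called higher and 0.715% lower. The fold changes lay above 0 for 57 and below for 45, with a median log2 fold change of 0.06. Vgf and Etv5 both stood on the list of targets of neurotrophin signalling. Of its 13 genes tested, 8 were above 0 and 5 below, with a median of 0.13. Whether signalling by these ligands changed was not tested. Vgf, a neuropeptide precursor induced by neurotrophins, was at 8.14, 7.71 and 3.89 CPM in control and 17.8, 23.5 and 36.4 CPM in degenerated replicates. Its log2 fold change was 1.97 (SE 0.42) with an unadjusted p of 0.00318 (adjusted p = 0.307, edgeR). Etv5, an ETS transcription factor that GDNF signalling induces, was at 37.9, 36.8 and 29.7 CPM in control and 52.3, 62.0 and 53.9 CPM in degenerated replicates. Its log2 fold change was 0.69 (SE 0.17) with an unadjusted p of 0.00619 (adjusted p = 0.342, edgeR). With DESeq2 the unadjusted p was 1.72e-05 for Vgf and 0.000656 for Etv5. The groups did not overlap for either gene, and groups lay apart with the degenerated libraries higher for 10.3% of all genes tested. Vgf did not pass without degenerated replicate 3 (unadjusted p of 0.011) or by the transcript with the most counts (0.0111). Etv5 did not pass in any of the 6 fits that left out a library (unadjusted p of 0.0114 to 0.0277), in edgeR's exact test (0.0261), by the transcript with the most counts (0.0102) or with the blood and marrow covariate (0.0204).

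In the other lists no gene passed. Of the other neurotrophins and their processing enzymes 4 of 7 were above 0, of the other neurotrophin receptors 2 of 7, of the other GDNF family ligands and receptors 2 of 4, and of the adaptors of Trk and Ret 14 of 23. Among kinases of the pathways 16 of 25 were above 0, in signalling of the neurotrophin receptor p75 5 of 14, and among inhibitors of Trk and Ret signalling 6 of 9. The list medians ran from -0.15, for the other neurotrophin receptors and for p75 signalling, to 0.30 for the inhibitors.

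Ngfr, the gene of p75, had no listed transcript and was not analysed here.

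**Figure D5:**
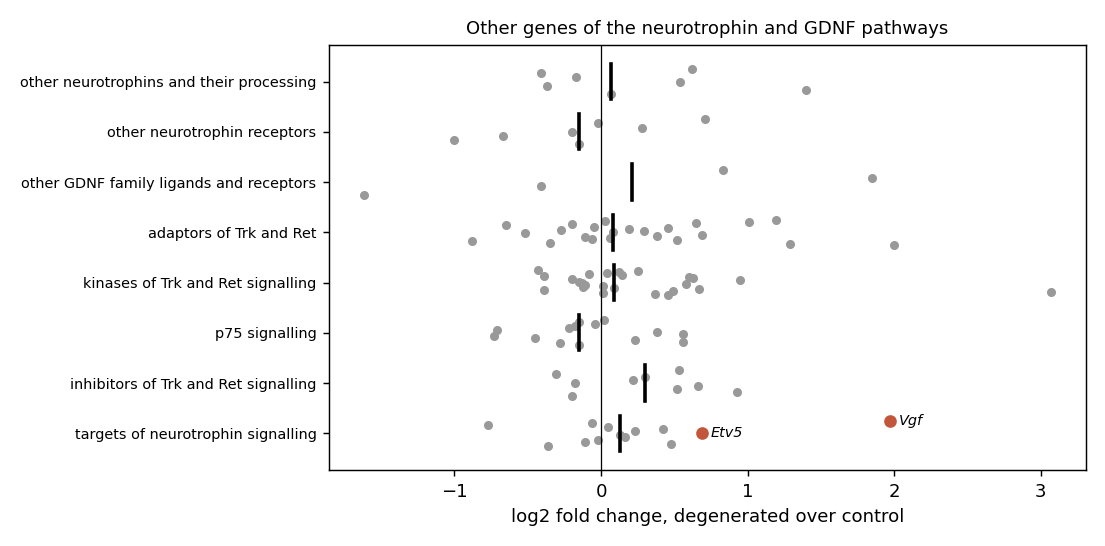
Log2 fold change in degenerated over control libraries of the 102 tested genes in 8 lists of the neurotrophin and GDNF pathways (grey points, not passing the test; red points, passing; black bars, list medians). The medians lie between -0.15 and 0.30, and Vgf (1.97) and Etv5 (0.69) are the genes that passed.

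The genes most like the 3 members with the smallest p were sought among all 14118 genes tested, by the mean absolute difference of log2(CPM + 1), centred on each gene's mean, over the 6 libraries. For Gfra1 these were Lad1 (difference 0.0551), Crybg1 (0.101) and Ibtk (0.107). For Ntrk3 they were Zfp955b (0.0485), Ist1 (0.0517) and E130311K13Rik (0.0524), and for Ret they were Rin2 (0.0961), Gm21816 (0.108) and Serping1 (0.109). Of the 3 most like Gfra1, Lad1 went from 23.9 to 52.2 CPM, Crybg1 from 46.7 to 111 and Ibtk from 13.7 to 30.2 between the control and degenerated means, which describes a like pattern in these libraries and no more.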

How the data were processed

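Modiolus RNA had been sequenced in 3 control and 3 degenerated libraries, and each column name was the title of 1 sample. The paper names Hisat2 for alignment and StringTie for expression, and the submitters' processing notes name Bowtie 0.12.2 with mm8 and mm10. Annotation, and how StringTie's output became whole-number counts, were not given in the sources used here. Deposited by the authors was 1 table of raw counts, whole numbers without normalization, for 65535 Ensembl transcripts. Transcripts were matched to GENCODE M21 (GRCm38), where 65272 matched and 263 (0.125% of counts) did not, and counts were added up per gene. The table lists 46.0% of the annotated transcripts, and with its header has 65536 lines, so that it may be a shortened table: a gene's sum covers its listed transcripts only, and a gene or transcript without a line may still be expressed.

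Genes and transcripts were tested in all 6 libraries with edgeR 4.0.16 (R 4.3.3), using filterByExpr, TMM normalization (factors of 0.983 to 1.02) and the robust quasi-likelihood F test, and transcript usage with diffSpliceDGE. Calls needed an unadjusted p under 0.01 and an absolute log2 fold change above 0.2, and Benjamini-Hochberg adjusted p are over all features tested. CPM use the TMM factors. The RPKM of a gene is the sum over its transcripts. A share has a 95% Wilson interval, and 3 counts were the upper limit for a 0.

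Alternatives were DESeq2 1.42.0, limma-voom (limma 3.58.1), edgeR's exact test, RLE and upper-quartile normalization, no filter or a mean count of 10, the replicate number as a block, the transcript with the most counts per gene, each library left out, and, chosen after the data were seen, a covariate for blood and marrow genes. The steps were tested on simulated data.

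The members and the lists were chosen with earlier results of these data known. Named are all members, their transcripts with a mean count of at least 10, Ngfr, up to 8 other pathway genes that passed, by smallest p, and for 3 members the 3 most like genes. Other genes and transcripts named were chosen after their values were seen. Some genes that the rule names are not reported here. Sequences are from GENCODE M21 transcripts and RefSeq promoters (GRCm38.p6).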

Additional observations from a re-analysis of the deposited data

How the results depend on the processing

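Of 16 alternatives, 8 kept the call for Gfra1, and none reversed its direction. The fits by which no member was called were the replicate block (0, with an unadjusted p of 0.0254 for Gfra1, where 0.02 for Vgf and 0.0167 for Etv5 also missed the threshold), the transcript with the most counts (0), the blood and marrow covariate (0) and 5 of the 6 that left out a library (0 to 1 member higher). DESeq2 called 6 other pathway genes higher and 3 lower, the covariate called 2 lower, and leaving out a library gave 1 to 6 higher. Over all genes, DESeq2 called 479 higher and 306 lower, the replicate block 160 and 58, and leaving out a library 144 to 339 and 76 to 158, against 284 and 101. Among member transcripts, DESeq2 (Gfra1-204) and the fit with no filter (Ntf3-201) each called 1, leaving out a library gave 0 to 1 for level and 0 to 1 for usage.

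Fold changes that did not pass the test changed sign in some fits. With a library left out, the log2 fold change ran from -0.51 to 0.25 for Ntf3, -0.25 to 0.12 for Ntrk2, -1.60 to 0.25 for Bdnf-201, -0.27 to 0.07 for Ntrk2-201 and -0.31 to 0.21 for Ntrk3-202, and the usage change from -0.35 to 0.98 for Bdnf-201 and -4.98 to 0.28 for Bdnf-209. With the covariate it was 0.13 for Ntf3 and 2.32 for Bdnf-209. The cause of these changes was not tested.

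Deviations of libraries with the same replicate number correlated at 0.137, -0.083 and 0.064, against -0.252 to 0.214 for libraries with different numbers. The same numbers did not stand out, so they were not taken as pairs, and the block is given for its counts only. Transcripts with few counts, such as those of Ntf3 and Gfra1, are limited by depth, and the listed transcripts limit every gene.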
